A study of Homo sapiens with 12 samples.

Results

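The response of LKB1-intact A549 cells to AA (ascorbate) was read by RNA sequencing, as the difference between 3 libraries of cells given AA and 3 given phosphate-buffered saline (PBS). These 6 libraries belong to a series of 12. They were chosen by their titles, which label the A549 cells WT, with PBS or with vitamin C (ascorbate). What WT refers to is not spelled out in the titles. A549 is an established human lung adenocarcinoma line. LKB1 is the kinase encoded by STK11, which activates AMPK, the sensor of low cellular energy, and its relatives. The other 6 libraries are A549 cells with deficient LKB1 under the same treatments. They share 1 fit with the intact libraries, and so bear on the filter, the scaling and the estimate of spread. They were also used to check STK11 and to test where the effect of AA differed. The line is widely described as STK11-mutant, and how cells with intact LKB1 were obtained is not stated in the labels, nor whether either kind of cell is 1 clone. The dose and duration of AA are not stated either. Separate cultures are not mentioned for the 3 libraries of a group. The p-values are therefore measured against library-to-library spread alone, and that spread may be only technical.

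At high dose, ascorbate is known to act on cultured cells partly as a pro-oxidant: it yields hydrogen peroxide in the medium, and its oxidised form enters cells through glucose transporters. It is also a cofactor of iron-dependent dioxygenases, among them the prolyl hydroxylases that mark hypoxia-inducible factor (HIF) for destruction. The metabolic, interferon and NF-kB arms of the transcriptome were followed, together with what lies outside them. Interferon-stimulated genes are antiviral genes switched on through JAK kinases and STAT and IRF factors. NF-kB is a family of dimeric transcription factors held in the cytoplasm by IkB proteins, which switches on inflammatory and survival genes together with its own inhibitors.

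The libraries held 16055534 to 19581071 estimated counts, and 12718 of 20323 genes passed the filter on low counts. Levels are given in CPM, counts scaled to library size and composition, and changes as the log2 difference of AA minus PBS. A gene was called when its adjusted p lay under 0.05 over all tested genes. STK11 was not called for AA in intact cells, at 25.4, 24.6 and 23.6 CPM under PBS and 24.3, 28.2 and 25.6 CPM under AA, and under PBS it was higher in intact than in deficient cells by 2.08 (SE 0.110, adjusted p = 1.48e-10). The epithelial markers fixed for the line summed to 2757 to 2855 CPM under PBS and 3864 to 3992 CPM under AA, and KRT8 and KRT18, 2 keratins of simple epithelia, made up most of the sum. KRT8 rose by 0.46, KRT18 by 0.89 and EPCAM by 0.3, while KRT7, another abundant keratin, fell by 0.16. CDH1 was not called, and KRT19 did not pass the filter. Of 6 markers of the alveolar type 2 cell 1 passed the filter, ABCA3, a lipid transporter of surfactant, at 144, 132 and 142 CPM under PBS and 130, 129 and 125 CPM under AA. Of 9 leukocyte markers, which summed to 84.71 to 93.12 CPM under PBS and 106.9 to 110.4 CPM under AA, 1 passed: CD68, a lysosomal protein, rose by 0.26. The leukocyte genes PTPRC, CD3E, CD3D and MS4A1 had no count in any of these 6 libraries, and CD14 went from at most 3 counts under PBS to 18, 10 and 17 counts under AA. The 7 fibroblast markers summed to 12.17 to 14.15 CPM and 16.09 to 16.84 CPM, with PDGFRB up by 1.61 and no count of PDGFRA or COL1A2. The 5 endothelial markers summed to 9.072 to 10.59 CPM and 3.187 to 4.443 CPM, where CDH5 fell by 1.38 and KDR had no count. Their part in the results was not tested. These marker genes were named after their values were seen.

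AA moved most of the measured transcriptome. Of 12718 tested genes, 8872 (69.8%) were called, 4392 (34.5%) up and 4480 (35.2%) down, and the median change over all tested genes was 0.01. Those shares are the background of every count of calls given for a list below. A change of at least 1 on the log2 scale was called in 569 genes up (4.47%) and 718 down (5.65%). These 2 counts depend on the settings: with a minimum count of 50 there were 297 such rises, and on log2 FPKM with a pseudocount of 1 there were 136 rises and 271 falls. The median standard error of a change was 0.0704, so small changes could be called. The 3 PBS and 3 AA libraries did not overlap for 72.8% of all tested genes and for 96.5% of called genes. These backgrounds stand behind each statement on overlap, the second for called genes. The 3 arms held 434 tested genes and 364 of the calls, 4.1% of all, with 227 up and 137 down. Genes in none of the lists made up 87.4% of the calls, 3788 up and 3970 down.

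The response leaned with transcript length. Genes were split by length into 10 bins of equal size. In the bin with the shortest transcripts (207 to 1135 bases, as estimated from the ratio of the deposited counts to FPKM), 65.64% were called up and 6.604% down, with a median change of 0.38. The share called up fell and the share called down grew along the bins, apart from a rise in the share called up from 21.79% to 21.95% between the bins 8 and 9. In the bin with the longest transcripts 14% were called up and 67.35% down, with a median of -0.36. This trend touches every list of short or long genes, so the median of most lists is given also with the trend of change on length removed.

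**Figure D1:**
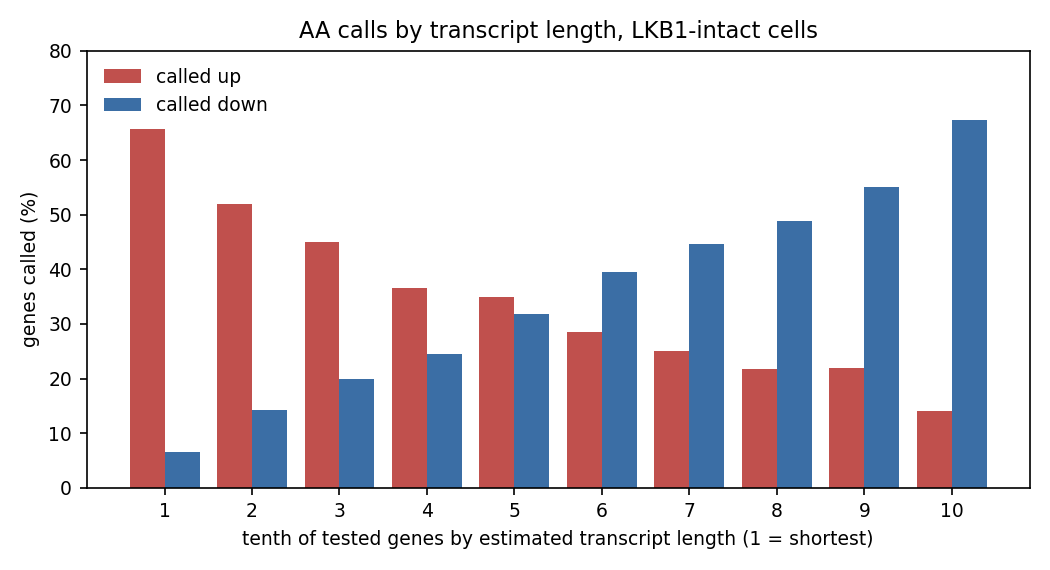
Share of tested genes called up (red) and called down (blue) by AA in LKB1-intact cells, in percent, for each of 10 bins of genes by estimated transcript length. The shortest bin has 65.64% called up and 6.604% called down, and the longest bin 14% called up and 67.35% called down.

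The changes of 17 of the lists are shown together in the plot of list members. In bulk libraries, fewer cells of a kind and less RNA per cell cannot be told apart, which holds for every fall below.

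**Figure D2:**
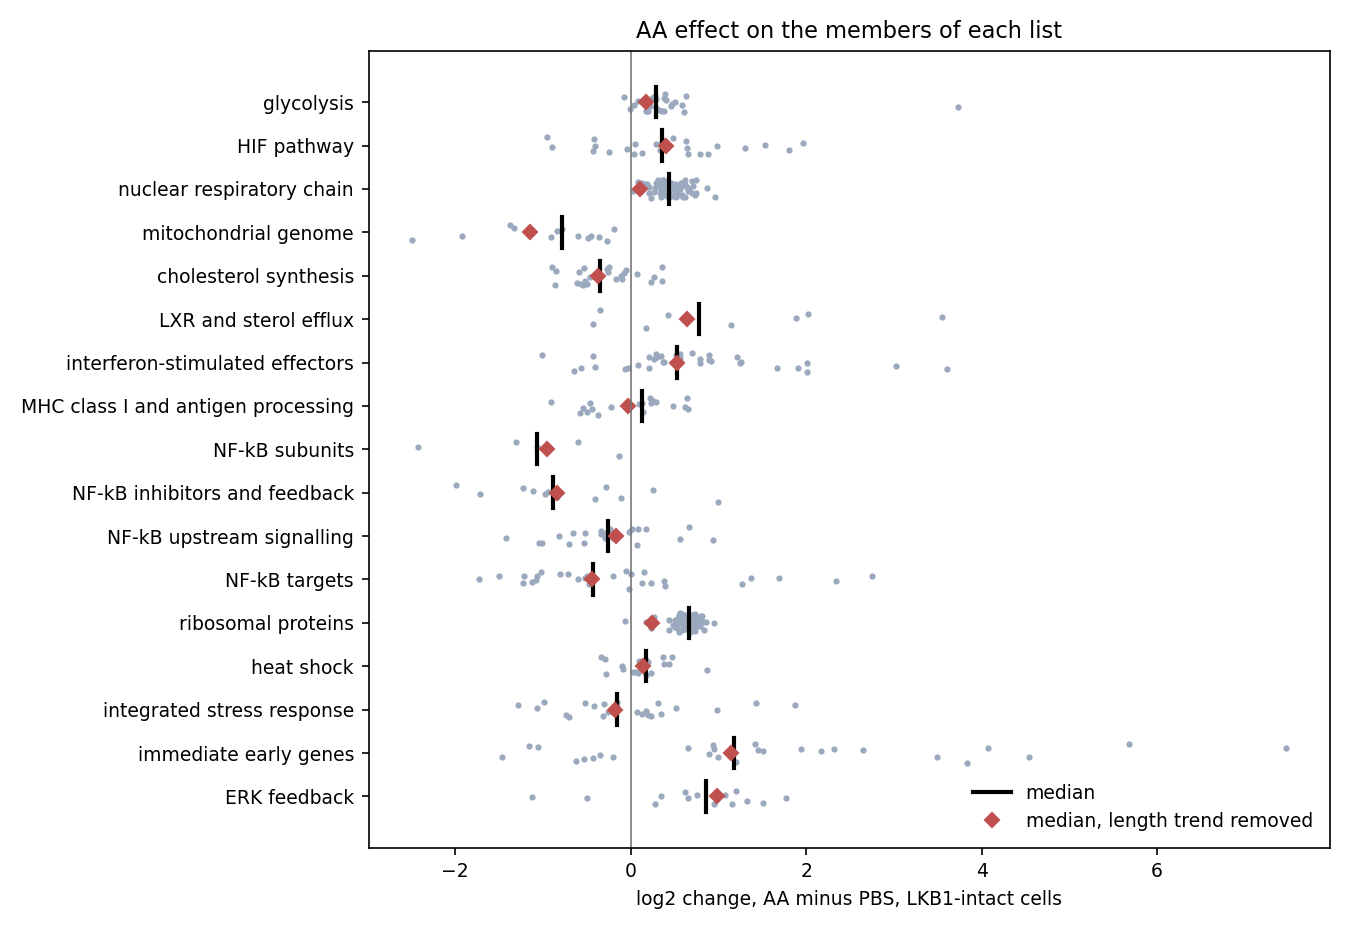
The log2 change under AA (horizontal axis) of each tested member (grey points) of 17 gene lists (vertical axis) in LKB1-intact cells, with the list median (black bar) and the median after the trend on length was removed (red diamond). Glycolysis, nuclear respiratory chain and ribosomal protein genes sit mostly right of 0, the 5 NF-kB subunits and the 13 genes of the mitochondrial genome sit left of it, and immediate early genes spread from -1.46 to 7.47.

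In the metabolic arm, genes of glucose use and HIF targets rose, genes of cholesterol synthesis fell, and the 2 genomes that encode the respiratory chain moved in opposite directions. The arm held 273 tested genes, of which 163 were called up and 72 down, against 34.5% and 35.2% of all tested genes. Its median change was 0.24, and 0.08 with the length trend removed.

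Glucose enters through transporters of the GLUT family, which also carry oxidised ascorbate. SLC2A1, the GLUT1 transporter, stood at 114, 124 and 121 CPM under PBS and at 193, 175 and 181 CPM under AA. SLC2A3, the high-affinity GLUT3 transporter, stood at 1.45, 0.919 and 0.618 CPM under PBS and at 14.2, 13.01 and 12.3 CPM under AA. For both genes all 3 AA libraries lay above all 3 PBS libraries, and the changes were 0.61 (SE 0.0454, adjusted p = 1.06e-10) and 3.74 (SE 0.1898, adjusted p = 2.15e-13). SLC2A3 has a near-identical relative, so its counts are uncertain as those of a single gene. Per length SLC2A1 remained the more abundant of the pair, at 74.3 FPKM under AA against 3.403 for SLC2A3. SLC23A2, a sodium-coupled carrier of reduced ascorbate, fell by 0.54 (adjusted p = 1.22e-05).

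Of 28 tested genes of glycolysis, 25 were called up and none down, with a median change of 0.29, or 0.18 with the length trend removed. Among the 17 enzymes of the pathway 16 rose. GAPDH, which oxidises glyceraldehyde phosphate, stood at 4396, 4342 and 4397 CPM under PBS and 6723, 6743 and 6903 CPM under AA, a change of 0.63 (SE 0.0256, adjusted p = 5.14e-15). PGK1, the next enzyme, rose from 851, 842 and 902 CPM to 1189, 1163 and 1221 CPM, PKM, which makes pyruvate, by 0.38, and HK2, a hexokinase, by 0.32. LDHA, which turns pyruvate into lactate, went from 2437, 2446 and 2520.0 CPM to 3008, 2941 and 3037 CPM, a change of 0.28 (adjusted p = 3.34e-10). PDK1, a kinase that holds pyruvate back from the mitochondrion, was not called, with a change of -0.07 (SE 0.0528). The rises of these enzymes were small, under 1 on the log2 scale for all 17, and the groups of libraries did not overlap for the enzymes given with their values here.

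HIF is degraded after prolyl hydroxylases (EGLN enzymes) mark it and VHL, part of a ubiquitin ligase, binds it, while HIF1AN hydroxylates it at another site and blocks its activity. Of 19 tested HIF targets 16 were called up and 1 down, 4 of them by at least 1, and the median was 0.48 as measured and 0.50 with the length trend removed. ADM, the vasodilator adrenomedullin, stood at 51.5, 49.5 and 45.4 CPM under PBS and 162, 175 and 174 CPM under AA (change 1.804, SE 0.04902, adjusted p = 7.49e-18). NDRG1, a stress-induced gene of the N-myc downstream regulated family, stood at 73.6, 63.96 and 71.05 CPM and 213, 195 and 195 CPM (change 1.53, SE 0.0571, adjusted p = 1.32e-15). BNIP3, a receptor of mitochondrial autophagy, rose by 0.88, and VEGFA, the angiogenic growth factor, by 0.48. CA9, a carbonic anhydrase much used as a hypoxia marker, was low in all 6 libraries, at 0.692, 1.19 and 1.91 CPM and 3.54, 2.95 and 2.95 CPM, and rose by 1.298 (SE 0.336). For these 5 targets every AA library lay above every PBS library.

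The regulators of HIF did not rise. HIF1A itself was not called, at 236, 239 and 229.8 CPM under PBS and 225, 233 and 229 CPM under AA. VHL fell from 78.96, 82.8 and 80.2 CPM to 41.4, 41.1 and 42.6 CPM, a change of -0.95 (SE 0.0473, adjusted p = 1.47e-13), and HIF1AN from 87.3, 91.7 and 89.4 CPM to 49.6, 49.6 and 44.95 CPM, a change of -0.8981 (adjusted p = 3.01e-13). Of 3 prolyl hydroxylase genes 2 fell and 1, EGLN3, was not called, while the log2 change of EGLN3 was 1.2 and called without PBS library 3 (adjusted p = 0.0322). The hypoxia response core (ACGTG or GCGTG, either strand) stood in the promoters (250 bases before to 50 after the start) of 73.9% of the tested HIF pathway genes with a promoter in the RefSeq table and of 63.6% of all tested genes.

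The pentose phosphate pathway makes NADPH for antioxidant defence and sugars for nucleotides. Of its 7 genes 5 were called up and 1 down, with a median of 0.15. TKT, a transketolase, rose by 0.24 and TALDO1, the transaldolase, by 0.402, while PGD was not called (0.02, SE 0.0334). In the TCA cycle 14 of 19 genes were called up and 2 down, with a median of 0.25 and of 0.09 without the length trend. IDH1, the cytosolic isocitrate dehydrogenase, rose by 0.67, and CS, the citrate synthase that opens the cycle, fell by 0.12.

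Subunits of the respiratory chain come from 2 genomes. Of 75 nuclear genes 72 were called up and none down, with changes from 0.02 to 0.97 and a median of 0.44. These genes are short, and with the length trend removed the median was 0.11. By complex, 36 of 38 genes of complex I, 3 of 3 of complex II, 8 of 9 of complex III, 10 of 10 of complex IV and 15 of 15 of the ATP synthase rose. The 13 protein-coding genes of the mitochondrial genome all fell, with a median of -0.78, and of -1.15 without the length trend, so the 2 sets had opposite signs with and without the trend. Counts on these genes made up 5.16 to 5.332% of a PBS library and 3.606 to 3.72% of an AA library.

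The mitochondrial genes did not fall evenly, although most of them are cut from common polycistronic transcripts. MT-ND6, the complex I gene alone on the light strand, stood at 519, 540.3 and 475 CPM under PBS and 92.4, 93.7 and 87.3 CPM under AA, a change of -2.49 (SE 0.0599, adjusted p = 1.75e-18). MT-ND5 stood at 3792, 3868 and 3601 CPM and 983, 1020.0 and 968 CPM, a change of -1.92 (SE 0.0355). MT-ND4, also of complex I and named after its values were seen, stood at 8443, 8488 and 8306 CPM and 7444, 7498 and 7216 CPM, a change of only -0.19 (SE 0.0212). The 7 complex I genes thus ranged from -2.49 to -0.19, while the 3 of complex IV ranged from -0.60 to -0.27, with MT-CO1 at -0.27. MT-ND6 and MT-ND5 lie end to end on opposite strands, and whether counting used strand is not given. Among 22 nuclear genes of mitochondrial transcription, replication, RNA stability and coactivation 9 rose and 9 fell, against 34.5% and 35.2% of all tested genes. TFAM, which packages and transcribes that genome, was not called (0.09, SE 0.0391), although without PBS library 3 or AA library 3 the log2 change of TFAM was called (adjusted p = 0.0445 and 0.0442). POLRMT, its RNA polymerase, rose by 0.23.

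Sterol genes moved apart by role. Cells keep cholesterol steady through SREBP factors, which switch on synthesis and uptake, and LXR receptors, which sense oxidised sterols and switch on export. Of 21 enzymes of cholesterol synthesis 16 were called down and 3 up, and of the whole list of 27 genes 19 down and 3 up (median -0.35, and -0.38 without the length trend). SQLE, the squalene epoxidase, stood at 89.5, 86.2 and 88.8 CPM under PBS and 50.1, 49.2 and 46.7 CPM under AA (change -0.86, SE 0.047, adjusted p = 7.7e-13), and HMGCS1 fell by 0.61. For SQLE every AA library lay below every PBS library.

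Of 8 tested genes of LXR and sterol export 5 were called up and 2 down. ABCG1, an exporter of cholesterol, stood at 1.195, 1.297 and 1.46 CPM under PBS and 16.6, 14.9 and 15.2 CPM under AA, a change of 3.55 (SE 0.141, adjusted p = 3.99e-15). ABCA1, its partner in export, stood at 4.22, 4.59 and 3.201 CPM and 14.8, 16.8 and 17.3 CPM (change 2.02, SE 0.134), and MYLIP, a ubiquitin ligase, at 7.11, 4.59 and 6.796 CPM and 21.6, 23.8 and 22.5 CPM (change 1.88). NR1H3, the LXR alpha receptor, rose from 16.7, 15.9 and 16.9 CPM to 32.3, 37.7 and 38.9 CPM (change 1.14, adjusted p = 1.53e-11). None of the 4 had overlapping groups. The 2 genes that fell are receptors: NR1H2, or LXR beta, fell by 0.43 (adjusted p = 5.79e-05) and RXRA, the partner of both LXRs, by 0.34 (adjusted p = 3.51e-07). NR1H2 was named after its values were seen. SREBF1, which encodes the SREBP of fatty acid synthesis, rose by 0.84. Of 12 enzymes of fatty acid synthesis 1 rose, FASN, the fatty acid synthase, by 0.1988, and 6 fell, among them SCD, the stearoyl desaturase, by 0.26.

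AMPK and the salt-inducible kinases are direct substrates of LKB1. The list of 11 genes held these kinases together with STRADA and CAB39, which are partners of LKB1 and not its substrates. Of the 11 genes 4 were called up and 4 down, against 34.5% and 35.2% of all tested genes, with a median of -0.03. STRADA was 1 of the 4 that rose. CAB39, named after its values were seen, was not called. PRKAA2, a catalytic subunit of AMPK, rose by 0.33, PRKAA1, the other one, was not called (-0.02, SE 0.0301), and SIK1 fell by 0.43. TXNIP, the thioredoxin-binding brake on glucose uptake, rose by 0.29, and its relative ARRDC4 fell from 18.6, 20.4 and 16.6 CPM to 9.59, 12.2 and 9.52 CPM (change -0.83, adjusted p = 1.35e-07). Transcripts of these kinases therefore shifted little and in both directions.

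**Figure D3:**
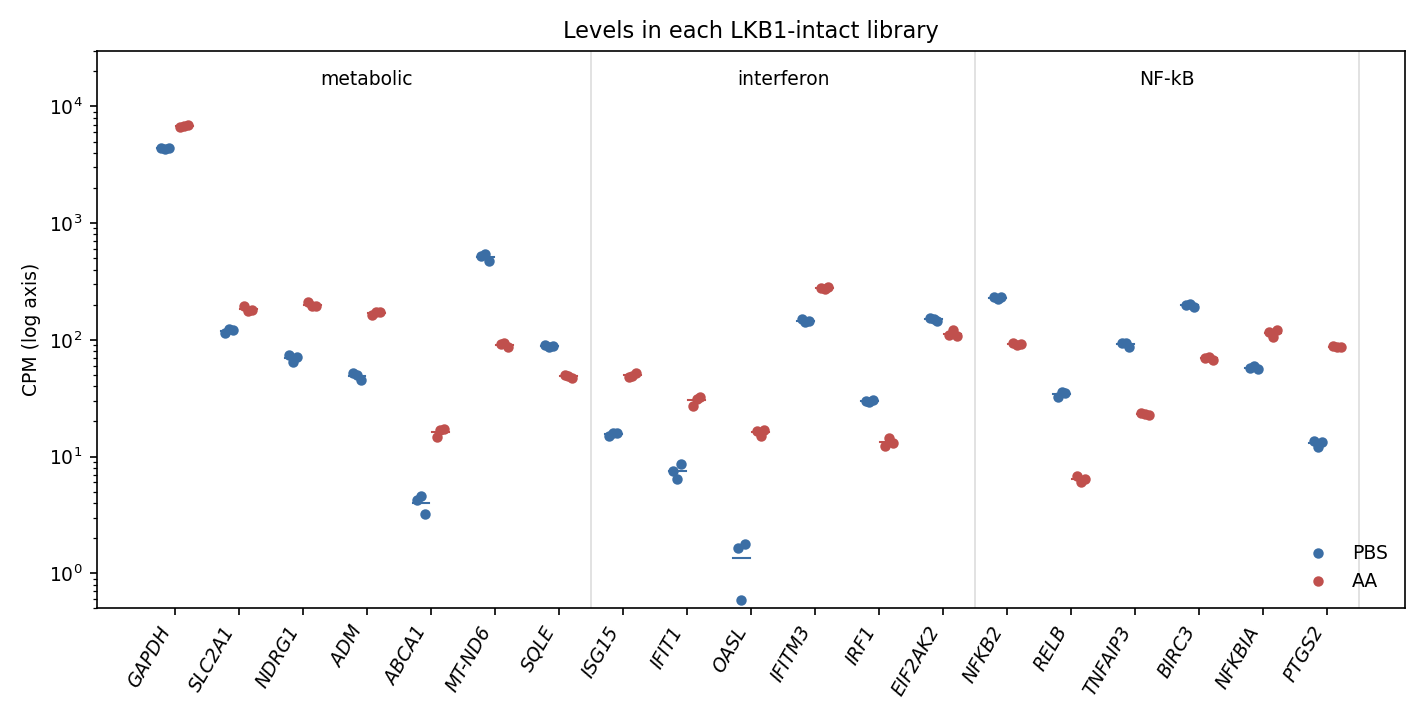
Level in CPM (vertical log axis) of 19 genes of the 3 arms in each LKB1-intact library, with PBS in blue, AA in red and a line at each group's mean of 3 libraries. The 2 groups stand apart for each of the 19 genes, for example MT-ND6 at 475 to 540 CPM under PBS and 87.3 to 93.7 CPM under AA.

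In the interferon arm the antiviral effector genes rose while interferon genes were not detected and the receptors mostly fell. The arm held 91 tested genes, 53 called up and 24 down, against 34.5% and 35.2% of all tested genes. Its median was 0.25, and 0.26 without the length trend. Promoters of the effectors are shown first, since most of those in the table hold the interferon-stimulated response element (ISRE), a site of STAT and IRF factors. The stretches are of RefSeq on GRCh38.p14, printed 5′ to 3′ on the gene's strand, with matches to the ISRE core (GAAANNGAA, or its complement, overlapping matches joined) in capitals. IFITM3 (chr11:320861-320942, minus strand), ISG15 (chr1:1013354-1013434, plus), BST2 (chr19:17405716-17405790, minus), IFIT1 (chr10:89392478-89392559, plus) and IFIT5 (chr10:89414494-89414573, plus) are given, the last pair because they moved in opposite directions, chosen after their values were seen.
IFITM3: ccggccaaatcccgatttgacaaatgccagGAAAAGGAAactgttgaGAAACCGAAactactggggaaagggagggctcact
ISG15: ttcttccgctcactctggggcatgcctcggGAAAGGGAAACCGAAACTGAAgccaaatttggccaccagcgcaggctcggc
BST2: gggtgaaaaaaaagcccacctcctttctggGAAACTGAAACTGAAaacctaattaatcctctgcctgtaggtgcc
IFIT1: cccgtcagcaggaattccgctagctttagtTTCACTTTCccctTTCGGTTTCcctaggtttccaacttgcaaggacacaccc
IFIT5: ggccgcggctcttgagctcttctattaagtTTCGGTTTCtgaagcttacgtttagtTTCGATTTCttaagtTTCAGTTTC

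The core stood in the promoter of 19 of 30 tested effectors with a promoter in the table (63.3%), and in 8.29% of all 27305 promoters of the table. For all tested genes with a promoter there the share was 6.32%. Among genes called up by at least 1 the share was 8.12%, and among those called down by at least 1 it was 5.91%. Within the effectors 13 of 23 that rose and 3 of 4 that fell held it. Matches are letters in a window and are not evidence of binding.

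Of 44 effector genes, 38 passed the filter. Of these, 29 were called up and 4 down, 9 and 1 of them by at least 1, and the median was 0.53 with and without the length trend. The 6 that did not pass had at most 9 counts in an intact library. ISG15, a ubiquitin-like protein conjugated to other proteins, stood at 15.1, 16 and 15.9 CPM under PBS and 47.9, 49.3 and 52.1 CPM under AA, a change of 1.67 (SE 0.0692, adjusted p = 7.52e-15). IFIT1, which binds viral RNA lacking cap methylation, stood at 7.55, 6.43 and 8.59 CPM and 27.1, 31.4 and 32.5 CPM, a change of 2.01 (SE 0.1103, adjusted p = 7.79e-13). OASL, a relative of the oligoadenylate synthetases, stood at 1.64, 0.595 and 1.797 CPM and 16.5, 15.01 and 17.02 CPM, a change of 3.601 (SE 0.211, adjusted p = 2.25e-12). Every AA library was above every PBS library for all 3.

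IFITM3, a membrane protein that blocks viral entry, stood at 151, 143 and 144 CPM under PBS and 276, 270.4 and 283 CPM under AA (change 0.92, SE 0.0353). BST2, or tetherin, which holds budding virus at the cell surface, stood at 163, 167 and 184 CPM and 273, 283 and 280.3 CPM (change 0.7031, SE 0.03703). IFIT2 rose by 1.22, OAS1, a sensor of double-stranded RNA, by 0.78, IFI6 by 0.89, UBE2L6, the conjugating enzyme of ISG15, by 0.79, and MX1, a dynamin-like antiviral GTPase, by 0.52. OAS2 and MX2, named after their values were seen, passed the filter from very low levels: OAS2 went from 0, 0.0541 and 0.337 CPM to 1.09, 1.33 and 0.983 CPM and MX2 from 0.252, 0.216 and 0.281 CPM to 1.03, 1.001 and 1.03 CPM. USP18, which removes ISG15 and dampens the receptor, was not called (0.21, SE 0.166), but the log2 change of USP18 was 0.43 and called without PBS library 1 (adjusted p = 0.0298).

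The 4 effectors that fell were also named after their values were seen, apart from EIF2AK2. IFIT5, whose promoter is printed above with 3 matches to the core, stood at 46.2, 48.2 and 45.9 CPM under PBS and 22.1, 24.4 and 23.3 CPM under AA (change -1.01, SE 0.0684, adjusted p = 2.59e-11). EIF2AK2, or PKR, a kinase that stops translation on double-stranded RNA, stood at 153, 150.4 and 146 CPM and 111, 122 and 107 CPM (change -0.41). ADAR, which edits double-stranded RNA, fell by 0.43, and DTX3L, a ubiquitin ligase that pairs with PARP9, by 0.56. With the length trend removed these were -1.03, -0.14, -0.17 and -0.31.

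Upstream of the effectors, 6 of 16 JAK-STAT and IRF genes were called up and 6 down, shares near the 34.5% and 35.2% of all tested genes. The 6 interferon genes on the list (IFNA1, IFNB1, IFNG, IFNL1, IFNL2 and IFNL3) had 0 counts in all 6 libraries. Of 6 receptor genes 4 were called down and 1 up: IFNAR1 and IFNAR2, the chains of the type I receptor, fell by 0.39 and 0.56, and IFNGR2 fell by 0.26. JAK1, the kinase shared by these receptors, fell from 313, 318 and 318 CPM to 224, 229.8 and 219.8 CPM (change -0.4962, adjusted p = 1.35e-11). STAT2 was not called, with a change of 0.05 (SE 0.0611). IRF9, its partner, rose by 1.03 from a low level. IRF7 rose by 0.79 and IRF3 by 0.64, both factors that drive interferon genes. IRF1, an interferon-induced factor, stood at 29.8, 29.2 and 30.7 CPM under PBS and 12.4, 14.5 and 13.1 CPM under AA (change -1.17, SE 0.0825, adjusted p = 5.29e-11). SOCS3, a feedback inhibitor of JAK kinases, stood at 15.3, 16.7 and 16.6 CPM and 70.8, 75.99 and 72.2 CPM (change 2.17, SE 0.0765, adjusted p = 5.07e-16). SOCS1, of the same family and named after its values were seen, stood at 0.252, 0.432 and 0.169 CPM and 0.763, 0.556 and 1.09 CPM.

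Of 12 tested genes of cytosolic nucleic acid sensing 6 were called up and 2 down, against 34.5% and 35.2% of all tested genes, with a median of 0.27. IFI16, a sensor of DNA, stood at 96.1, 96.5 and 97 CPM under PBS and 159, 170.3 and 159 CPM under AA (change 0.75, SE 0.0411, adjusted p = 7.41e-13), with no overlap of the groups. TREX1, which degrades cytosolic DNA, rose by 0.64. STING1, the adaptor of DNA sensing, rose by 0.5001, TBK1, its kinase, by 0.19, and CGAS, another DNA sensor, was not called (-0.02, SE 0.0608). In MHC class I presentation all 19 genes were called, 11 up and 8 down. PSMB8 and PSMB9 of the immunoproteasome rose by 0.48 and 0.65, and PSME1 and PSME2, its activators, by 0.63 and 0.65. TAP1 and TAP2, which carry peptides into the endoplasmic reticulum, fell by 0.4975 and 0.58, and TAPBP, which loads them, by 0.37. B2M, the light chain of MHC class I, rose by 0.23. The list's median of 0.13 was -0.03 with the length trend removed.

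In the NF-kB arm the subunits and most inhibitors fell, and targets were called in both directions. The arm held 70 tested genes, 11 called up and 41 down, against 34.5% and 35.2% of all tested genes. Its median was -0.37 with and without the length trend. Promoters of 3 called members with a match to the 10-base kappa-B consensus are shown, and that of NFKBIA for contrast, chosen after its values were seen, with matches in capitals (RefSeq, GRCh38.p14). BIRC3 (chr11:102317255-102317388), TNFAIP3 (chr6:137867162-137867243) and NFKB1 (chr4:102501280-102501349) are on the plus strand, and NFKBIA (chr14:35404791-35404860) is on the minus strand.
BIRC3: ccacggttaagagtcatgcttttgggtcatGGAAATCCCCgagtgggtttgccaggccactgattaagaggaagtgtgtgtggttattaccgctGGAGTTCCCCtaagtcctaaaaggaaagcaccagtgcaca
TNFAIP3: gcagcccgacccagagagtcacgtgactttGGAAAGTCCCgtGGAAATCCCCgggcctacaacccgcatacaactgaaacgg
NFKB1: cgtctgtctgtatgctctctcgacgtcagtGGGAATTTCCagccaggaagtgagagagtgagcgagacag
NFKBIA: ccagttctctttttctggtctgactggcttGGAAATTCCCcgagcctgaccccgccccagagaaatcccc

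A kappa-B match stood in the promoters of 10 of 24 tested targets (41.7%), 4 of 11 inhibitors (36.4%) and 2 of 4 subunits (50%) with a promoter in the table. It stood in 5.72% of all promoters and in 6.56% of those of tested genes. Among the targets it was present for 5 of 11 that fell, 1 of 4 that rose and 4 of 9 that were not called. Genes of both directions thus carried it, as BIRC3 and NFKBIA show.

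All 5 subunit genes were called down. RELB, the partner of p52 in the non-canonical pathway, stood at 32.2, 35.6 and 34.9 CPM under PBS and 6.76, 6.003 and 6.36 CPM under AA, a change of -2.42 (SE 0.102, adjusted p = 9.19e-15). NFKB2, which encodes the p52 precursor, stood at 232, 222 and 232 CPM and 94.7, 89.6 and 91.9 CPM, a change of -1.31 (SE 0.0376, adjusted p = 1.66e-17). NFKB1, which encodes the p50 precursor, stood at 98.97, 109 and 113 CPM and 50.7, 50.1 and 52.5 CPM, a change of -1.07 (SE 0.0495, adjusted p = 4.79e-14). In all 3 every AA library was below every PBS library. REL fell by 0.6046, which was -0.11 with the length trend removed. RELA, the main activating subunit, fell by 0.13 (SE 0.0359, adjusted p = 0.00256), but with upper quartile scaling the log2 change of RELA was -0.069 and was not called (adjusted p = 0.0923). The 3 largest falls are of genes that NF-kB itself is known to induce. The activity of NF-kB was not tested.

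Of 12 inhibitors and feedback genes 9 were called down and 1 up. TNFAIP3, or A20, a ubiquitin-editing enzyme that shuts the pathway off, stood at 93.9, 93.9 and 87.4 CPM under PBS and 23.6, 22.96 and 22.5 CPM under AA (change -1.99, SE 0.07302, adjusted p = 9.69e-16). CYLD, a deubiquitinase with the same role, stood at 92.9, 96.01 and 92.1 CPM and 37.2, 41.4 and 41.1 CPM (change -1.23), and TNIP1, which binds A20, at 164, 167 and 170.2 CPM and 87.7, 85.6 and 87.6 CPM (change -0.94). NFKBIA, the classical IkB, was the exception, at 57.5, 59.2 and 55.9 CPM and 116, 107 and 121 CPM (change 0.99, SE 0.0468, adjusted p = 6.23e-14). The list therefore held falls in all but 1 of its called members, with no overlap of the groups for the 4 genes given here.

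Upstream, 14 of 24 tested genes were called down and 3 up, with a median of -0.26. TNFRSF12A, the receptor of the cytokine TWEAK, stood at 108, 119 and 124 CPM under PBS and 54.9, 56.5 and 58.8 CPM under AA (change -1.05, adjusted p = 1.32e-13). TRAF2, a receptor adaptor, fell by 0.66, MAP3K14, or NIK, the kinase of the non-canonical pathway, by 0.52, and IKBKB, which phosphorylates IkB, by 0.21. TNFRSF1A, the receptor for TNF, was not called (0.09, SE 0.0573), and the log2 change of TNFRSF1A was called at 0.14 without AA library 2 (adjusted p = 0.0492).

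Of 41 target genes 29 passed the filter. Of these, 7 were called up and 13 down, against 34.5% and 35.2% of all tested genes. Their median was -0.43, and -0.45 without the length trend. The 12 that did not pass had at most 7 counts in an intact library. Among survival genes 5 of 6 fell. BIRC3, a ubiquitin ligase that blocks caspase activation, stood at 198, 203 and 192 CPM under PBS and 70.3, 71.04 and 67.7 CPM under AA (change -1.51, SE 0.0468, adjusted p = 5.97e-17). CFLAR, an inhibitor of caspase-8, stood at 37.2, 39.6 and 36.4 CPM and 15.8, 17.4 and 18.8 CPM (change -1.12), and BCL2L1, which guards the mitochondrial membrane, fell by 0.47. SOD2, the mitochondrial superoxide dismutase, fell from 284, 271 and 268 CPM to 129, 133 and 131 CPM (change -1.06, adjusted p = 2.26e-16), ICAM1, an adhesion molecule, from 107, 117 and 110.4 CPM to 55.6, 56.5 and 52.6 CPM (change -1.02), and LIF, a cytokine, by 1.21. None of these 6 genes had overlapping groups.

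PTGS2, or COX-2, the inducible prostaglandin synthase, stood at 13.6, 12.1 and 13.3 CPM under PBS and 89.4, 85.99 and 87.6 CPM under AA, a change of 2.75 (SE 0.0719, adjusted p = 4.43e-18). GADD45B, a stress sensor, stood at 11.1, 8.704 and 9.15 CPM and 46.5, 50.97 and 48.2 CPM, a change of 2.33 (SE 0.0808). IER3 stood at 41.1, 40.5 and 37.5 CPM and 98.2, 108 and 102 CPM, a change of 1.37 (SE 0.0534). LCN2, an iron-binding lipocalin named after its values were seen, rose by 1.69, and CCL2, a chemokine for monocytes, by 1.27 from 2.52, 3.41 and 3.88 CPM. CXCL8 and CXCL1, the neutrophil chemokines, were under 2 CPM in all 6 libraries and were not called, but without AA library 3 the log2 change of CXCL1 was called at -1.76 (adjusted p = 0.036). CXCL2, of the same family, fell by 0.81 (adjusted p = 0.00249) from 2.58, 2.33 and 2.86 CPM to 1.53, 1.45 and 1.45 CPM, with no overlap. The plot of called NF-kB genes shows both directions.

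**Figure D4:**
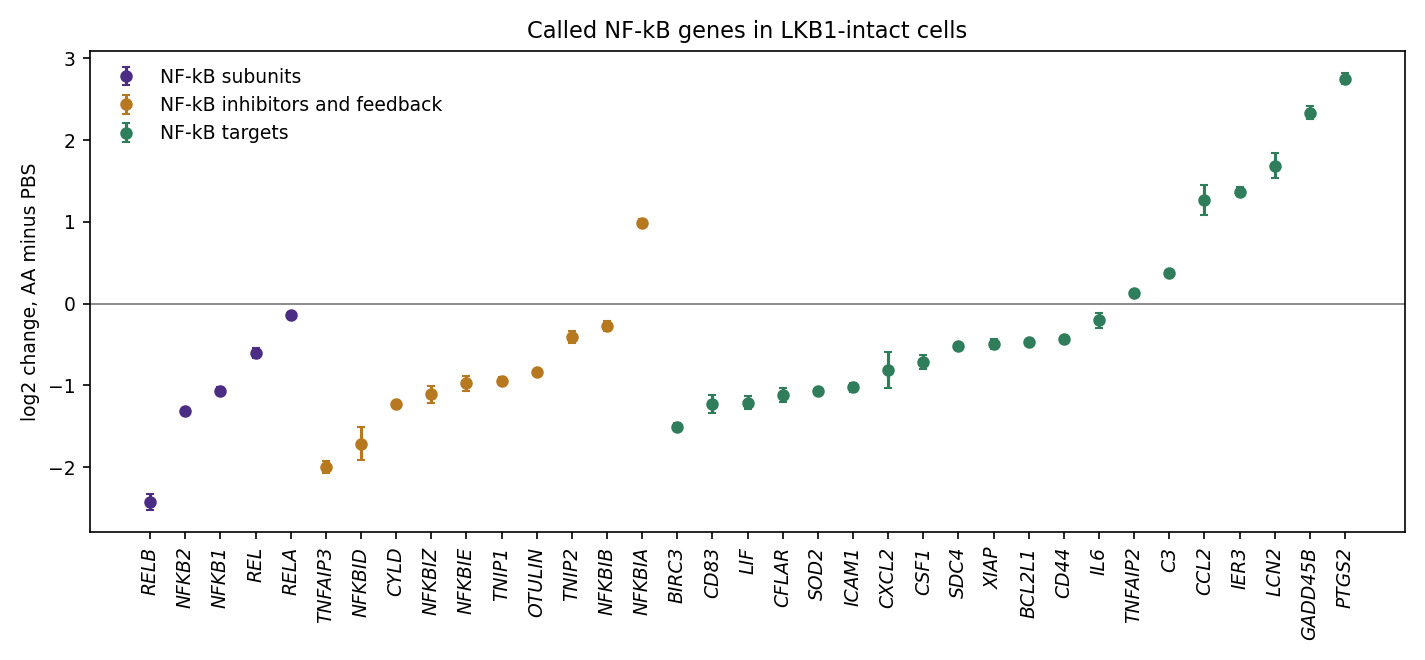
The log2 change under AA (vertical axis, with its standard error as bars) of each called NF-kB subunit (purple), inhibitor or feedback gene (brown) and target (green) in LKB1-intact cells. All 5 subunits lie below 0, NFKBIA is the only called inhibitor above it at 0.99, and 7 targets lie above 0, up to 2.75 for PTGS2.

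Outside the 3 arms large changes were found in immediate early genes, which are transcribed within minutes of a stimulus, often through the factor SRF and its ERK-activated partners. All 28 tested genes were called, 20 up and 8 down, 15 and 3 of them by at least 1, with a median of 1.18, and of 1.14 without the length trend. Promoters of the 2 members with a match to the CArG box (CC, then 6 bases of A or T, then GG), the site of SRF, are shown with the box in capitals: EGR1 (chr5:138465344-138465435) and SRF (chr6:43171209-43171268), both plus strand, RefSeq, GRCh38.p14.
EGR1: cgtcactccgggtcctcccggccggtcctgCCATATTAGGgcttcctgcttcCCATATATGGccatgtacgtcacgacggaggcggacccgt
SRF: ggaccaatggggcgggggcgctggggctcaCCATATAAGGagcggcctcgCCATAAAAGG

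The CArG box stood in the promoters of 2 of 22 members in the table (9.09%), in 1.29% of all promoters and in 0.992% of those of tested genes. These 2 genes moved in opposite directions. EGR1, a zinc finger factor, stood at 0.692, 0.973 and 0.562 CPM under PBS and 16.2, 19.1 and 17.3 CPM under AA, a change of 4.54 (SE 0.1701, adjusted p = 1.43e-15). SRF, at 58.96, 64.1 and 65.04 CPM and 32.7, 28.7 and 29.3 CPM, fell by 1.05 (SE 0.0659, adjusted p = 7.07e-12).

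FOS, a member of the AP-1 dimer, stood at 1.64, 1.297 and 2.19 CPM under PBS and 87.7, 83.8 and 91.4 CPM under AA, a change of 5.68 (SE 0.107, adjusted p = 1.87e-20). ARC, a neuronal immediate early gene, stood at 0.503, 0.162 and 0.225 CPM and 46.4, 57.1 and 53.1 CPM, a change of 7.47 (SE 0.173, adjusted p = 9.52e-19). NR4A2, an orphan nuclear receptor, stood at 3.08, 3.14 and 2.25 CPM and 47.02, 51.1 and 44.6 CPM, a change of 4.07 (SE 0.122). All 3 were low under PBS, and every AA library was far above every PBS library. ARC passed the filter through the AA libraries, as did 1 other member, so its fold rests on a PBS mean under 0.5 CPM. ZFP36, which destabilises cytokine transcripts, rose by 2.65, FOSB by 3.495, NR4A3 by 2.32, ATF3 by 1.41 and JUN, the partner of FOS, by 1.199. SRF and JUN were named after their values were seen. Per length FOS reached 41.8 FPKM under AA, against 20.7 for ATF3.

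Feedback genes of ERK signalling rose too, 12 of 14, with 2 down and a median of 0.85. DUSP5, a phosphatase of nuclear ERK, stood at 26.2, 26.2 and 23.7 CPM under PBS and 60.5, 54.97 and 53.5 CPM under AA (change 1.15, SE 0.0677), and DUSP6, the cytoplasmic one, rose by 1.76. HBEGF, a ligand of the EGF receptor, rose by 1.37, while TGFA, another, fell by 0.52. ERRFI1, an inhibitor of that receptor that is in none of the lists, stood at 18.1, 16.8 and 20.2 CPM and 84.4, 79.7 and 79.3 CPM (change 2.15, adjusted p = 1.59e-17).

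For the integrated stress response and the NRF2 pathway the counts in each direction lay near the 34.5% up and 35.2% down of all tested genes. Those counts themselves say nothing particular of these lists. The peroxide and heat shock lists below had rises in a larger share than all tested genes. In the integrated stress response, in which ATF4 raises amino acid supply, 10 of 25 genes rose and 11 fell, with a median of -0.16. ATF4 rose by 0.17 and PPP1R15A, the phosphatase subunit that ends the response, by 1.43, whereas ASNS, the asparagine synthetase, fell by 0.3046 and SLC7A11, the cystine importer, from 224, 230.2 and 220.2 CPM to 114, 117 and 109 CPM (change -0.99, SE 0.0353). Of 25 NRF2 pathway genes 11 rose and 9 fell. HMOX1, the haem oxygenase, rose by 0.43 and NQO1 by 0.23, while TXNRD1, the thioredoxin reductase, fell from 1448, 1439 and 1445 CPM to 807, 832 and 809.8 CPM (change -0.82, adjusted p = 5.97e-17) and GCLM, of glutathione synthesis, by 0.51. In the list of enzymes that handle peroxide and superoxide 11 of 14 rose and 1 fell, among the risers CAT, the catalase, by 0.62 and PRDX1 by 0.47; the list's median of 0.47 was 0.14 without the length trend. SOD2, counted with the NF-kB targets and not in this list, fell. Of 19 heat shock genes 12 rose and 5 fell, with HSPB1, a small heat shock protein, up by 0.87. HSPA8, the constitutive chaperone, fell by 0.2975.

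Of 19 p53 targets 9 rose and 6 fell, against 34.5% and 35.2% of all tested genes. CDKN1A, the p21 inhibitor of the cell cycle, stood at 25.4, 25.2 and 23.98 CPM under PBS and 113, 105 and 112 CPM under AA, a change of 2.15 (SE 0.0548, adjusted p = 4.32e-18). MDM2, the ubiquitin ligase of p53 and itself a target, fell by 0.29. In S phase 13 of 20 genes rose and 7 fell, and in G2 and mitosis 16 of 26 rose and 5 fell, with medians of 0.13 and 0.22. MKI67, a proliferation marker, fell by 0.62, which was -0.09576 with the length trend removed.

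Pyroptosis, named in the study's title, is a lytic death carried out by gasdermins. Of 18 listed genes, 13 passed the filter. Of these, 5 were called up and 3 down, against 34.5% and 35.2% of all tested genes, with a median of 0.09. GSDME, the gasdermin cut by caspase-3, stood at 102, 100.2 and 98.8 CPM under PBS and 95.1, 100.1 and 103 CPM under AA and was not called (-0.01, SE 0.0376). CASP1, the inflammasome caspase, rose by 0.65, CASP4, which senses bacterial lipid, by 0.32, and IL18, a cytokine they mature, by 0.44. The largest fitted change of the list was that of NLRC4, an inflammasome sensor named after its values were seen, which was near the limit of detection at 0.0629, 0 and 0.112 CPM and 0.545, 0.334 and 0.414 CPM. PYCARD, the inflammasome adaptor, also named after its values were seen, rose by 0.9033. GSDMD, the gasdermin cut by inflammatory caspases, did not pass the filter. RNA levels do not show cleavage of these proteins.

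SNAI1 and SNAI2, sister repressors of E-cadherin, moved apart. SNAI1 stood at 3.15, 3.57 and 3.48 CPM under PBS and 35.96, 39.1 and 37.5 CPM under AA (change 3.46, SE 0.105, adjusted p = 3.98e-17), and SNAI2 at 20.4, 17.2 and 18.2 CPM and 4.74, 6.003 and 4.91 CPM (change -1.83, SE 0.109, adjusted p = 2.92e-12). CDH1, which encodes E-cadherin, was at most 2.43 CPM in any of the 6 libraries and was not called. In the list of 17 genes of epithelial-mesenchymal transition 7 rose and 6 fell, also near the shares of all tested genes. All 15 tested clock genes were called, 7 up and 8 down: CRY2, a repressor of the clock, fell by 2.13 and CRY1 by 0.9006, and BHLHE40 rose by 0.94. The call of PER1, a clock gene counted as up, was lost with DESeq2 (adjusted p = 0.0618), limma-voom (0.0534) and a replicate block (0.0525). Leaving out a library ended it for PBS 1, PBS 2, PBS 3 and AA 3, and without AA 3 the log2 change of PER1 was 0.094 (adjusted p = 0.358).

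Among enzymes that use ascorbate as a cofactor, 9 of 20 rose and 6 fell, against 34.5% and 35.2% of all tested genes. TET3, which oxidises methylated cytosine, stood at 77.3, 75.7 and 73.2 CPM under PBS and 25.3, 27.5 and 23.1 CPM under AA (change -1.58, SE 0.0631), and KDM6B, a histone demethylase, fell by 0.92. P4HA1, a collagen prolyl hydroxylase, rose from 87.1, 82.3 and 85.99 CPM to 136, 129.5 and 134 CPM (change 0.64). FTL, a ferritin chain that stores iron, rose by 0.5 and TFRC, the transferrin receptor, fell by 0.1048, in a list of iron handling where 4 of 12 rose and 6 fell.

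Large gene families moved together. Of 84 tested genes for cytosolic ribosomal proteins 81 were called up and none down, with a median of 0.67, which was 0.24 with the length trend removed. RPS2 stood at 2051, 2062 and 2133 CPM under PBS and 3570.0, 3549 and 3676 CPM under AA (change 0.79, SE 0.0234), and the family took 3.839 to 3.942% of the counts under PBS and 5.859 to 6.423% under AA. Genes that build ribosomes went the other way, with 4 of 26 up and 16 down, among them RRS1, which fell by 0.92. Proteasome genes rose in 33 of 37 cases with 1 down, but their median of 0.31 was 0.08 without the length trend, and for 77 mitochondrial ribosomal proteins (55 up, 3 down) the median went from 0.21 to -0.04. Ribosomal protein genes have many pseudogenes, so single members are uncertain.

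Zinc finger genes of the ZNF series, many of them KRAB repressors of transposons clustered on chromosome 19, mostly fell. Of 386 tested 248 were called down and 34 up, 96 of them down by at least 1 (against 5.65% of all tested genes), with a median of -0.58, and of -0.50 without the length trend. On chromosome 19, 119 of 172 fell and 10 rose, with a median of -0.67, and elsewhere 129 of 214 fell and 24 rose, with a median of -0.44. Other genes of chromosome 19 had a median of 0.15, with 317 of 725 up and 161 down. ZNF587B, of chromosome 19, fell by 2.16 and its neighbour in name ZNF587 by 1.56, and reads of such related genes can be split. Splicing factors also fell in 12 of 20 cases with 3 up, and of the 20 LENG8 fell most, from 199, 199 and 184 CPM to 38.9, 38.3 and 32.1 CPM (change -2.41, SE 0.0627, adjusted p = 4.43e-18).

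Of genes in none of the lists, abundant ones that rose included CSRNP1, an AXIN1-induced nuclear factor, from 33.98, 33.8 and 33.4 CPM to 202, 189 and 193 CPM (change 2.53, SE 0.04703), and PNRC1, a nuclear receptor coactivator, which went from 22.4, 22.5 and 23.6 CPM to 115, 114 and 109 CPM (change 2.31). HBP1, a repressor of cell cycle genes, rose by 1.35, RND3, an atypical small GTPase, by 1.34, and TNFRSF10D, a decoy receptor for TRAIL, by 1.29. Among those that fell were TRIO, a guanine nucleotide exchange factor, from 707, 712 and 689 CPM to 199.9, 204 and 178 CPM (change -1.86, or -1.42 with the length trend removed), LAMA1, a laminin chain, by 2.08, and PPP1R3D, a glycogen-targeting subunit of protein phosphatase 1, by 2.09. Falls of GOLGA8A, GOLGA8B, NBPF10, NBPF14 and NBPF19 belong to families of near-identical copies, and single members are uncertain. None of the 8 genes given with a change in this paragraph had overlapping groups.

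The effect of AA was then compared with that in LKB1-deficient cells by the difference of the 2 log2 changes, intact minus deficient. Over all tested genes 5673 (44.6%) were called for this difference, 2926 higher (23%) and 2747 lower (21.6%) in intact cells. Higher and lower refer to the signed change, so a deeper fall in intact cells counts as lower and a shallower fall as higher. In the 3 arms 246 of 434 members were called, 147 higher and 99 lower. The arms leaned in different directions: the metabolic arm had 99 higher and 48 lower, the interferon arm 35 and 15, and the NF-kB arm 13 and 36.

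In glycolysis 18 of 28 genes had a higher effect in intact cells and 3 a lower one. PKM rose in intact cells (0.38) and fell in deficient cells (-0.14), a difference of 0.52 (SE 0.03301, adjusted p = 4.25e-11), and LDHA did likewise (difference 0.45). FASN differed by 1.14 (SE 0.0566, adjusted p = 7.85e-13), with a change of -0.94 in deficient cells. NDRG1 rose by 1.53 in intact and 0.31 in deficient cells (difference 1.22, adjusted p = 1.31e-10). VEGFA and TXNIP rose more in deficient cells, with differences of -1.12 and -1.42. For ADM, ABCG1 and NR1H3 no difference was called, at 0.16 (SE 0.0716), -0.39 (SE 0.237) and -0.11 (SE 0.107).

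Of 38 tested interferon effectors 21 had a higher effect in intact cells and 2 a lower one. IFIT1 rose by 2.01 in intact and 0.28 in deficient cells, a difference of 1.73 (SE 0.168, adjusted p = 3.05e-08). OAS1 rose in intact and fell in deficient cells, where its change was -0.27 (difference 1.05, adjusted p = 1.12e-07), and BST2 was not called in deficient cells (difference 0.65, adjusted p = 2.09e-09). ISG15 and IFITM3, by contrast, were not called for a difference, at 0.22 (SE 0.102) and 0.06 (SE 0.05002).

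Among the NF-kB genes, 4 of 5 subunits and 18 of 29 targets had a lower signed change in intact cells. Some fell deeper in intact cells, as RELB did, or rose less, as IER3 did. RELA, IL6 and BCL2L1 fell in intact and rose in deficient cells, and CXCL8 was called only in deficient cells, where it rose. RELB differed by -1.57 (SE 0.138, adjusted p = 6.66e-09), falling by 2.42 in intact cells against a change of -0.85 in deficient ones, and NFKB2 by -1.09 (SE 0.0517, adjusted p = 3.45e-13). TNFRSF12A fell in intact and rose in deficient cells (difference -1.37, adjusted p = 1.21e-12). NFKBIA and PTGS2 were not called for a difference, which was 0.06 (SE 0.0671) and 0.08 (SE 0.108). Outside the arms, the integrated stress response differed in all 25 genes, 22 lower and 3 higher in intact cells: ASNS changed by 2.66 in deficient cells, a difference of -2.97 (SE 0.0827, adjusted p = 9.81e-17). Heat shock genes leaned the other way, 14 of 19 higher, with HSPA8 at -2.52 in deficient cells (difference 2.22, adjusted p = 3.34e-21).

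**Figure D5:**
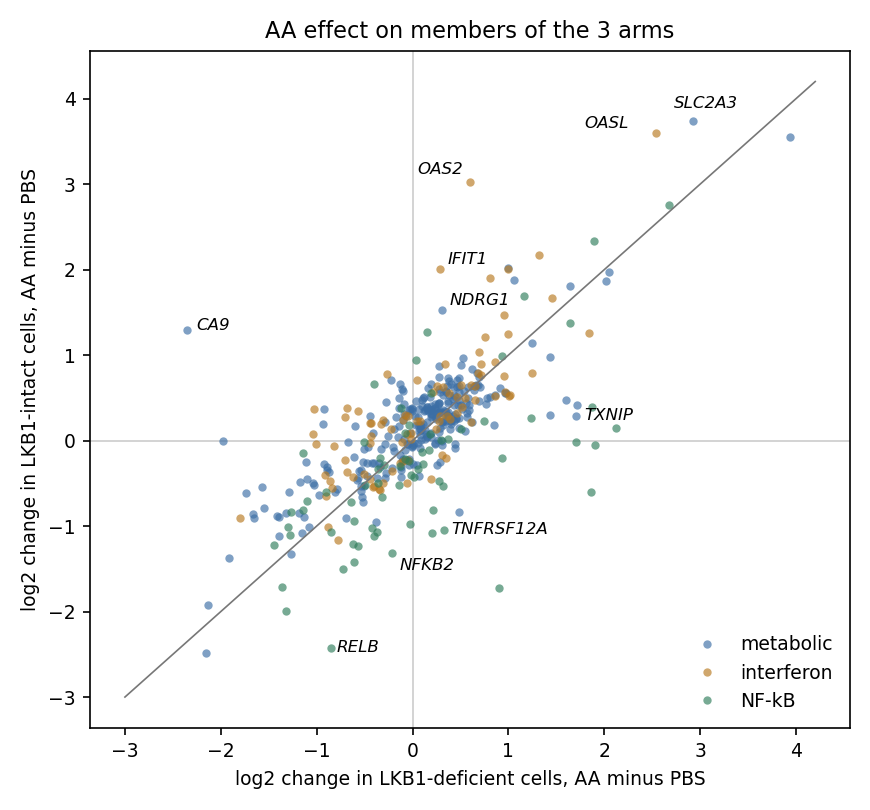
The log2 change under AA in LKB1-deficient cells (horizontal axis) and in LKB1-intact cells (vertical axis) of each tested member of the metabolic (blue), interferon (brown) and NF-kB (green) arms, with a line of equal change. RELB lies below the line at -0.85 and -2.42, IFIT1 above it at 0.28 and 2.01, and CA9 farthest above it at -2.35 and 1.298.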

How the data were processed

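RNA sequencing of A549 cells gave 12 libraries in 4 groups of 3, and the comparison described is between 3 PBS and 3 AA libraries of LKB1-intact cells, grouped by their titles. The authors deposited estimated counts per gene and FPKM values. Per the submitters' processing notes, the tools were RSEM, HISAT2 2.1.0, StringTie 1.3.1, Bowtie2 2.2.8 and fastp 0.18.0. For the RSEM version, genome build and strand setting: not given in the sources used here. Of the count values 11 to 11.4% in the intact libraries had a fraction, and they were rounded to whole numbers.

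Genes were filtered at a minimum count of 10 (edgeR filterByExpr), which kept 99.97% of the counts, scaled by TMM and tested with edgeR 4.0.16 (R 4.3.3) by the quasi-likelihood test with 1 fit over all 12 libraries and Benjamini-Hochberg adjustment over all 12718 tested genes. Every adjusted p in the text is from this fit unless another setting or a left-out library is named with it. A standard error is the size of the log2 change over the square root of F. The difference in effect is the interaction of AA with genotype. The trend on length is a loess curve (span 0.5) of log2 change on the length estimated from counts and FPKM. Between libraries of a group the chi-square per degree of freedom was 2.01 to 4.26, where sampling noise alone gives about 1, so none was taken as a copy of another. Library totals of 16055534 to 19581071 set the precision, with a median standard error of 0.0704.

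The members and the 51 lists were chosen with earlier results of these data known. Genes are named by a rule: key members of each list, the called members of smallest p (up to 5 in an arm, 4 outside), the 10 largest rises and falls, the 8 largest of each among abundant genes in no list, and the 6 of smallest p in each direction for the difference. Of the list genes 6 were not matched to the tables. Promoters are from RefSeq (GRCh38.p14). Alternatives were other scaling factors, filters, limma 3.58.1, DESeq2 1.42.0, FPKM with a pseudocount of 1 or 0.1, a stricter threshold, a test against a 1.2-fold change, a replicate block, the 6 libraries alone and each library left out. The search and the fit were tested on simulated data. Some genes chosen by the rule are not reported here.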

Additional observations from a re-analysis of the deposited data

Results flagged for a closer look

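Members of the 3 arms that are named by the rule were looked at again where AA moved them in opposite directions in the 2 genotypes, each change called, with the difference called as well. Of 434 tested arm members 246 were called for the difference and 37 moved in opposite directions, 18 of which are given here. Differences are intact minus deficient on the log2 scale, from edgeR's quasi-likelihood fit.

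Of the genes higher in effect in intact cells, those of the metabolic arm, which holds 273 of the 434 members, come first. CA9 differed by 3.65, CA12, another carbonic anhydrase of the HIF targets, by 1.29, FASN by 1.14, PGAM1, a glycolytic mutase, by 0.776, PKM by 0.520, LDHA by 0.447, SDHA, of complex II, by 0.400 and TKT by 0.343. In the interferon arm OAS1 differed by 1.05, IFIT3 by 0.654 and TBK1 by 0.514.

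Of the genes lower in effect in intact cells, TNFRSF12A differed by -1.37, IL6 by -1.13, TNFRSF10B, a receptor for TRAIL, by -0.844, BCL2L1 by -0.743 and RELA by -0.230, all of the NF-kB arm. ARRDC4 differed by -1.32 and IFNGR1 by -0.475.

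The intact-cell calls of 3 of these, IFNGR1, IFIT3 and IL6, depend on single libraries. That of RELA was lost with upper quartile scaling. Against a 1.2-fold change the calls of these 3 genes and of RELA, LDHA, TKT, SDHA, FASN, PGAM1 and TBK1 were lost. IFNGR1 was lost without PBS library 3 (change -0.12, adjusted p = 0.114) and with upper quartile scaling (adjusted p = 0.13). IFIT3 was lost without PBS library 1 (adjusted p = 0.0822), PBS library 2 (0.0925), AA library 2 (0.139) or AA library 3 (0.0753). IL6 was lost without PBS library 1 (adjusted p = 0.0585), PBS library 2 (0.211), AA library 1 (0.0555) or AA library 3 (0.156). The log2 change of IL6 was also not called with upper quartile scaling (adjusted p = 0.143), with DESeq2 (0.0545) or on log2 FPKM (limma, 0.195 with either pseudocount and 0.272 with no filter).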

How the results depend on the processing

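Across the scaling, filter and test alternatives most results kept direction and call: of 341 genes followed 316 were called, and 66 of the 341 lost a call or changed sign under at least 1 of 21 settings, mostly against a 1.2-fold change. Against a 1.2-fold change the genes called numbered 5110, with 2428 genes called up and 2682 genes called down, and 12 glycolysis genes were up. Rises of at least 1 numbered 297 with a minimum count of 50, and on log2 FPKM 136 with a pseudocount of 1, 296 with 0.1 and 134 with 1 and no filter. Falls of at least 1 numbered 271 and 268 with a pseudocount of 1, with and without the filter. The median changed sign with the length trend removed for MHC class I presentation (-0.03), the aryl hydrocarbon receptor list (-0.022) and mitochondrial ribosomal proteins (-0.041), and on FPKM for the ascorbate-using dioxygenases (-0.011 with a pseudocount of 1, -0.012 with 0.1). PER1, of the clock list, was -0.033 on FPKM with a pseudocount of 1, with or without the filter, and -0.039 with 0.1. The cause was not tested. With upper quartile factors 56.2% of calls were up against 49.5%, and the median of all genes was 0.07 against 0.01. Of the genes given with a change in the text, CS, TFRC, RELA, IFNGR1 and IL6 lost their call with these factors, IKBKB, ASNS and IL6 on log2 FPKM, and PER1 and IL6 with DESeq2.

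Leaving out each library in turn left 8332 to 8524 genes called, with 4103 to 4202 genes called up and 4229 to 4322 genes called down. The same replicate number did not mark libraries that deviated together (correlations -0.0155, -0.0193 and 0.0537), and with a replicate block the genes called numbered 8776, 4334 up and 4442 down. For a gene whose standard error was near the median of 0.0704, a change of that size could not be called. Genes with smaller errors could be called at smaller changes.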

Other observations

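Genes of glutamine use and nucleotide supply were called in both directions in LKB1-intact cells under AA, 5 of 14 up and 6 down, near the 34.5% and 35.2% of all tested genes. CTPS1, which makes CTP, stood at 213, 222 and 236 CPM under PBS and 134, 136 and 137 CPM under AA (change -0.72, SE 0.0401, adjusted p = 9.45e-13 by edgeR's quasi-likelihood test). All 3 AA libraries lay below the PBS libraries. CAD, of pyrimidine synthesis, fell by 0.43, and IMPDH2, of guanine nucleotide synthesis, rose by 0.32.

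Of 37 aminoacyl-tRNA synthetases, which load amino acids onto tRNAs, 15 rose and 6 fell, against 34.5% and 35.2% of all tested genes. MARS2, the mitochondrial methionyl enzyme, stood at 13.3, 14.98 and 13.5 CPM under PBS and 2.78, 3.06 and 2.85 CPM under AA (change -2.26, SE 0.145), while TARS2 and FARS2, also mitochondrial, rose by 0.78 and 0.85. Of 7 genes of the aryl hydrocarbon receptor, a sensor of aromatic compounds, 4 rose and 3 fell, with ALDH3A1, an aldehyde dehydrogenase, up by 1.08, AHRR, the receptor's repressor, down by 1.12 and CYP1B1, a target oxidase, down by 0.76. Of 28 tested histone genes 11 rose and 1 fell, against the same shares of all tested genes. Their median of 0.53 was 0.11 with the length trend removed, and near-identical copies make single histone genes uncertain.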
